A study of Mus musculus with 6 samples.

Results

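A set of 10 genes of the brain endothelium and its barrier was followed through 6 RNA sequencing libraries of cortex bordering an infarct. They were Pecam1, Cldn5, Flt1, Kdr, Mfsd2a, Slco1a4, Slco1c1, Abcb1a, Ly6c1 and Itm2a. They were taken by symbol, and all 10 were found among the 24419 genes of the table. All mice were male, carried loxP-flanked Padi4 alleles (Padi4flox/flox) and had a 60-minute middle cerebral artery occlusion, and tissue was taken on day 4. Mice with those alleles alone gave the 3 libraries labelled control, and mice that also carried Slc17a7-cre and Slc32a1-cre, drivers expressed in glutamatergic and GABAergic neurons, gave the 3 labelled cKO. No uninjured mice were analysed here, and ages are not known from the sources used here. The cells had been sorted as Thy1-positive and negative for ACSA2, CD31, CD45 and O4. CD31 is the protein of Pecam1, so the gate was set to remove endothelial cells, and the values are the transcript of these genes that was read in the sorted cells, whichever cells it came from.

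Capillaries of the brain are lined by endothelial cells that are sealed by tight junctions, take up little by vesicles and carry dedicated uptake and efflux transporters. Together these features form the blood-brain barrier, which opens after ischaemia. The 10 genes cover its parts: the adhesion protein gene Pecam1 and the tight junction gene Cldn5, the VEGF receptor genes Flt1 and Kdr, the transporter genes Mfsd2a, Slco1a4, Slco1c1 and Abcb1a, and the surface protein genes Ly6c1 and Itm2a, which are abundant in brain endothelium. Several are also transcribed elsewhere, such as Slco1c1 in astrocytes, Pecam1 and Ly6c1 in blood cells and Itm2a in lymphocytes.

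Promoter windows of 3 genes are shown, for Flt1, which was read in every library, for Slco1a4, which was highest in cKO replicate 2, and for Itm2a, which had no read in that library. They come from RefSeq (GRCm38.p6, the mm10 assembly) and run 5′ to 3′ on the gene's strand, from 250 bases before the start to 50 after it. All 3 genes lie on the minus strand. Capitals mark matches, on either strand, to the letters searched: CGGAAGT or AGGAAGT for ETS factors, ACAATG for SOX factors, TGTTTAC for FOX factors, CTTTGAT for TCF and LEF factors, and TATAAA for the TATA box.
Flt1, chr5:147725962-147726261: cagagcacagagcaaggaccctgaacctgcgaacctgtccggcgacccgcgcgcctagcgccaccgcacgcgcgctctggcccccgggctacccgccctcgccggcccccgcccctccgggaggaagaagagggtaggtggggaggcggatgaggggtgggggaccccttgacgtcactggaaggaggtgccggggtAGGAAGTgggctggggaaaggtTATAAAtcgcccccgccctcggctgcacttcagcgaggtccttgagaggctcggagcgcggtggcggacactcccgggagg
Slco1a4, chr6:141856171-141856470: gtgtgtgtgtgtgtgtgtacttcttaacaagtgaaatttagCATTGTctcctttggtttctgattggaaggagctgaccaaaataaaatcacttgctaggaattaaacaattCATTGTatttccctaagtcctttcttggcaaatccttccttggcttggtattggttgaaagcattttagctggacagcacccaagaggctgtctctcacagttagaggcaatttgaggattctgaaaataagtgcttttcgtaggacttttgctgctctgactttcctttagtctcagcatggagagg
Itm2a, chrX:107403311-107403610: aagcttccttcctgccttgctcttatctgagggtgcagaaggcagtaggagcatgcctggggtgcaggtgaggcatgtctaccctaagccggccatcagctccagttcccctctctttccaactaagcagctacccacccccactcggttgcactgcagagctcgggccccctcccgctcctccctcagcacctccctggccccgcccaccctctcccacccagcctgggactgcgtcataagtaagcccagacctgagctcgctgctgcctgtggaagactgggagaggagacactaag
Flt1 holds an ETS match and a TATA match, Slco1a4 holds a pair of SOX matches read as CATTGT on the printed strand, and Itm2a holds none of these letters. RefSeq windows were matched for 9 of the 10 genes, all but Pecam1, and 2 windows for Ly6c1 made 10 in all. An ETS match was found in windows of 3 of the 9 genes (Flt1, Ly6c1 and Slco1c1), beside 15.1% of all 32851 windows of this length. The same 3 genes held a TATA match, beside 13.6% of all windows. A SOX match was found for Slco1a4 alone (12.6% of all windows), a FOX match for Abcb1a alone (3.65%), in a window at a RefSeq start upstream of the GENCODE start of the gene given below, and a TCF or LEF match for none of the 9 (3.73%). ETS, SOX and FOX factors direct endothelial genes, and TCF and LEF factors carry the Wnt signal that maintains the barrier. A match describes the letters only.

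The libraries held 10094145 to 24056755 reads. Replicate 2 had the fewest detected genes in each group, 15261 in control and 14042 in cKO, beside 16818 to 17891 in the other 4. Padi4, the targeted gene, had no read in any control library and 0, 3 and 12 reads in cKO replicates 1 to 3, so it did not bear out the labels, and every direction below is that of the labels. Summed over 15 pan-neuronal markers, levels ran from 1919 to 7619 deposited scaled CPM, and over 14 mature oligodendrocyte markers from 11923 to 35319, above the neuronal sum in every library. The 10 endothelial and barrier genes summed to 117.5 to 133.2 in 5 libraries and to 189.8 in cKO replicate 1. Mfsd2a and Slco1a4 held 49.3 and 38.4 of the 129.6 in cKO replicate 2, so a steady sum does not mean steady genes. With Mfsd2a, Slco1a4 and Slco1c1 left out, the mean log2(value + 1) of the rest ran from 2.64 to 3.48 in control. In cKO replicates 1 to 3 it was 3.65, 1.70 and 2.97. A sum over 10 genes of different lengths does not count cells. In such bulk samples the number of endothelial cells, their RNA per cell and transcript from other cells cannot be told apart. Values below are deposited scaled CPM, called units, and log2 fold changes are labelled cKO minus labelled control on log2(value + 1), which understates changes of low genes.

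**Figure D1:**
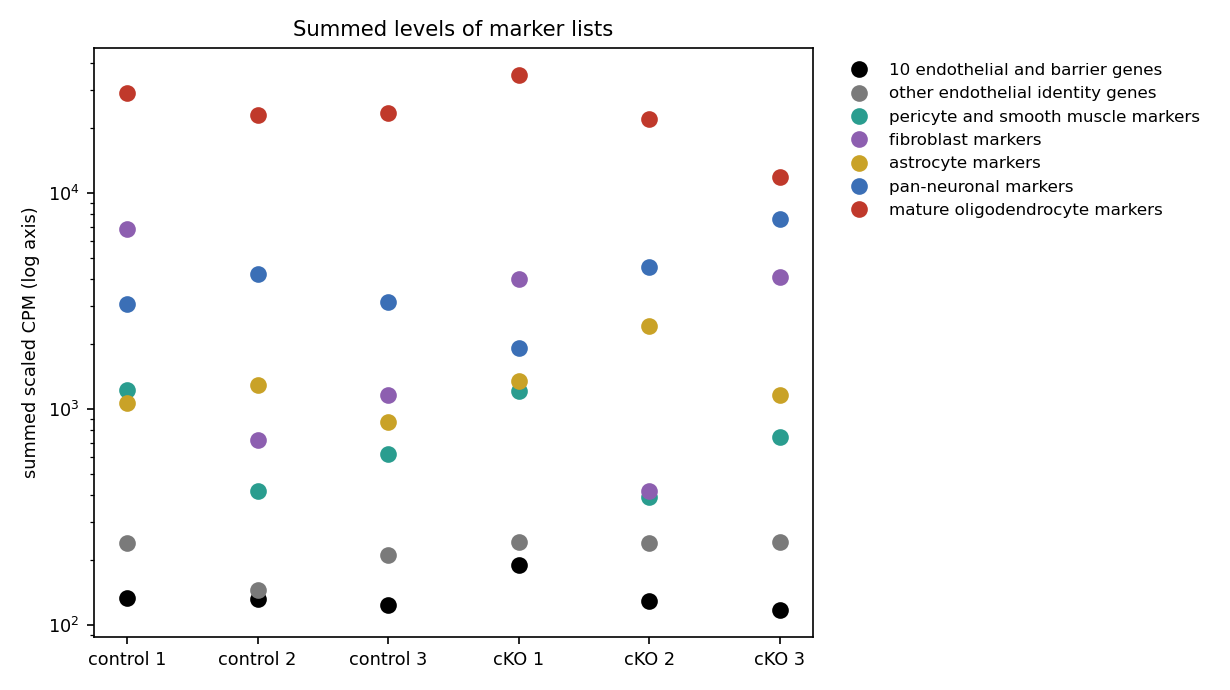
Summed deposited scaled CPM (log axis) of marker lists in each of the 6 libraries, 1 point per list and library. The sum of the 10 endothelial and barrier genes stays between 117.5 and 189.8, though single genes among them vary more. The fibroblast sum runs from 417.9 to 6802, and at its lowest, in cKO replicate 2, Pdgfra holds 362.3 of it.

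No member differed between the groups beyond the spread of the libraries. In limma, 0 of the 10 passed an adjusted p under 0.05 in either direction, beside 0% of the 14796 genes tested in each direction. All 10 passed the filter on low values, and each had an adjusted p of 0.9996. At an unadjusted p under 0.05 limma, edgeR and DESeq2 each gave 0 of the 10, where limma gave 0.338% of all tested genes as higher and 0.514% as lower. Over all 14796 genes, both directions together, edgeR gave 73 and DESeq2 175 at that level. The groups overlapped for all 10, while over all tested genes every cKO library lay above every control library in 2.45% and below in 2.26%. By sign alone, 6 of the 10 were higher in cKO, beside 48% of all tested genes, and 4 were lower, beside 52%. Their median log2 fold change was 0.23, beside -0.02 over all tested genes, and their mean was -0.01, opposite in sign to the median. The median turned to -0.16 without control replicate 2 and to -0.15 without cKO replicate 1. The intervals were wide: the narrowest, for Mfsd2a, ran from -0.51 to 1.26, and the widest, for Itm2a, from -4.07 to 0.73. The labels do not say whether each library is a separate animal, so the p-values rest on a spread that may be technical.

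**Figure D2:**
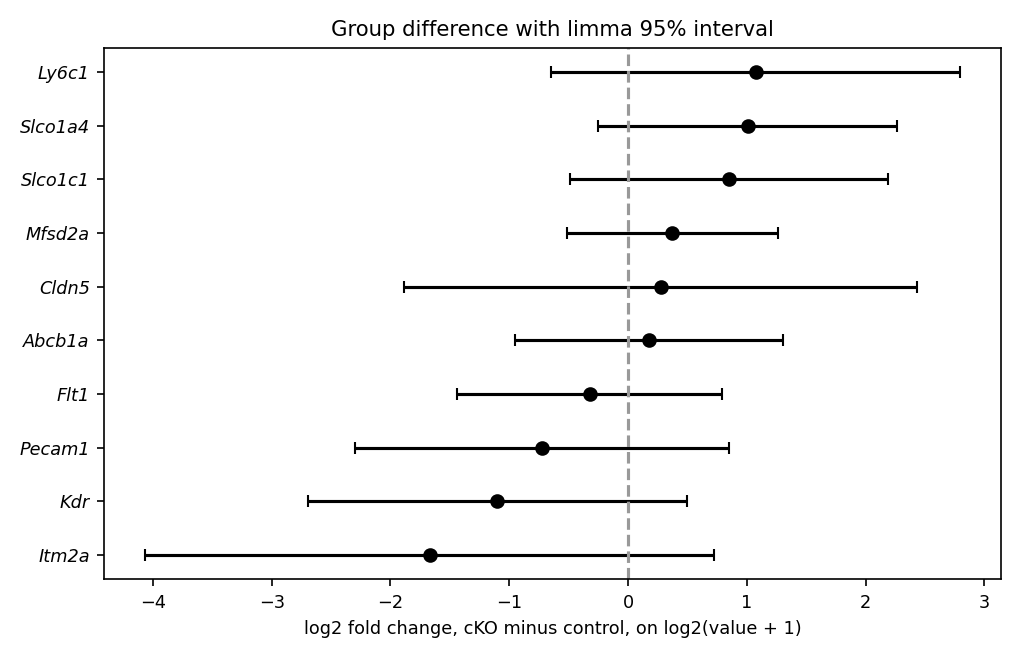
Log2 fold change of each of the 10 genes, labelled cKO minus labelled control, with the limma 95% interval (n = 3 libraries per group). Every interval spans 0, from Itm2a at -1.67 to Ly6c1 at 1.08.

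The adhesion gene Pecam1 and the junction gene Cldn5 both had their lowest value in cKO replicate 2. Pecam1, on chromosome 11 from 106654217 to 106750628 in mm10 (minus strand), encodes CD31, which joins endothelial cells at their contacts. It was at 4.79, 4.85 and 6.94 units in control replicates 1 to 3, from 52, 66 and 125 reads, and at 7.53, 0.909 and 2.65 in cKO replicates 1 to 3, from 157, 9 and 63 reads. The cKO libraries held both the highest and the lowest values, and the control values lay between them. The log2 fold change was -0.73 (SE 0.71), and -0.21 without cKO replicate 2 and -1.29 without cKO replicate 1. Transcript of the gene for the excluded protein was thus read in every library. Ptprc, whose protein CD45 was also excluded, was at 0 to 2.35 units, and Atp1b2, whose protein carries the ACSA2 epitope, at 132.7 to 412.4. Blood cells also transcribe Pecam1. Summed over 17 microglia and leukocyte markers, levels were 65.0 to 102.1 units in control and 54.2 to 92.0 in cKO, with 2 markers at 0 in every library, and over 10 platelet and red cell markers at most 19.2 and 25.9, with 4 at 0 in every library. The part of blood cells in the Pecam1 values was not tested.

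Cldn5, on chromosome 16 from 18776847 to 18778262 (plus strand), has a single exon and encodes claudin-5, the main claudin of brain endothelial tight junctions. It was at 2.67, 0 and 5.67 units in the control libraries, replicates 1 to 3, and at 6.24, 0 and 5.01 in cKO replicates 1 to 3. The reads behind these values were 29, 0 and 102 in control and 130, 0 and 119 in cKO. Both libraries numbered 2 thus had no Cldn5 read, which allows levels of up to 0.221 and 0.303 units at a floor of 3 reads. The other 4 libraries held it at 2.67 or more, and the log2 fold change was 0.28 (SE 0.97). It ran from -0.49 without control replicate 2 to 1.18 without cKO replicate 2, and was also below 0 without cKO replicate 1 or 3. Of 1598 other genes with a mean within 1.5-fold of that of Cldn5, 234 were at 0 in control replicate 2 and 480 in cKO replicate 2, beside at most 30 in each of the other 4 libraries.

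The VEGF receptor genes were highest in different libraries. Flt1, on chromosome 5 from 147561604 to 147726011 (minus strand), encodes VEGFR1, which binds VEGF-A tightly and is also made as a soluble decoy; gene-level counts do not separate the forms. It was at 22.8, 18.5 and 21.4 units in control and at 30.8, 11.92 and 11.95 in cKO replicates 1 to 3. The control values sat close together, and those of cKO fell above and below them (log2 fold change -0.32, SE 0.50, and -0.75 to -0.10 without 1 library). Kdr, on chromosome 5 from 75932827 to 75978458 (minus strand), encodes VEGFR2, the main signalling receptor for VEGF-A. It was at 5.62, 9.64 and 6.50 units in control and at 6.48, 0.606 and 3.45 in cKO, the lowest being 6 reads in replicate 2. Of the 3 cKO values, 2 lay below every control value and replicate 1 lay among them (log2 fold change -1.10, SE 0.72). Without cKO replicate 2 the log2 fold change of Kdr was -0.49, and without both libraries numbered 2 it was -0.29. Flt4, the third receptor gene of the family and typical of lymphatic vessels, reached at most 3.54 units.

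None of the 4 transporter genes had its lowest value in cKO replicate 2. Mfsd2a, on chromosome 4 from 122946850 to 122961188 (minus strand), encodes the lipid transporter that brings docosahexaenoic acid into the brain and keeps transcytosis low. It was at 30.5, 57.7 and 24.4 units in control and at 42.3, 49.3 and 46.0 in cKO replicates 1 to 3. The 3 cKO values lay between the control values, which held both the highest and the lowest of the 6, and the log2 fold change was 0.37 (SE 0.40), and 0.12 without control replicate 3 and 0.72 without control replicate 2. Abcb1a, on chromosome 5 from 8660077 to 8748575 (plus strand), encodes the efflux pump P-glycoprotein. It was at 11.98, 9.86 and 12.3 units in control and at 18.6, 10.1 and 11.5 in cKO, so that 5 libraries lay between 9.86 and 12.3 and cKO replicate 1 stood above them (log2 fold change 0.18, SE 0.51, which turned to -0.065 without cKO replicate 1). Its largest value was 1.88 times its smallest, the narrowest range among the 10.

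The organic anion transporter genes had the highest values in cKO libraries. Slco1a4, on chromosome 6 from 141805440 to 141856199 (minus strand), encodes a carrier of steroid conjugates and drugs. It was at 10.5, 7.28 and 14.6 units in control and at 23.9, 38.4 and 11.3 in cKO replicates 1 to 3. Replicates 1 and 2 of cKO lay above all control libraries and replicate 3 among them. The log2 fold change was 1.01 (SE 0.57), with a limma p of 0.105 before adjustment, the smallest of the 10 genes and the 488th of all tested genes. On the recovered reads the log2 fold change was 1.18 in edgeR and in DESeq2, with unadjusted p of 0.068 and 0.063 and adjusted p of 0.99988 and 0.99996. In limma it was 0.62 without cKO replicate 2, and 0.38 when both libraries numbered 2 were left out, which was decided after their values were known. Slco1c1, on chromosome 6 from 141524368 to 141570177 (plus strand), encodes a thyroxine carrier. It was at 4.24, 7.43 and 4.89 units in control and at 17.4, 10.7 and 6.10 in cKO, where again replicates 1 and 2 lay above all control libraries and replicate 3 did not (log2 fold change 0.85, SE 0.60, and 0.51 without cKO replicate 1). Astrocytes also transcribe this gene, and the summed level of 13 astrocyte markers ran from 876.4 to 1299 in control and from 1161 to 2439 in cKO, highest in cKO replicate 2, where Slco1a4 but not Slco1c1 peaked. The part of astrocytes in these values was not tested.

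The surface protein genes had the largest differences of either sign. Ly6c1, on chromosome 15 from 75044018 to 75048830 (minus strand), encodes a lipid-anchored surface antigen. It was at 1.84, 0.515 and 8.33 units in control and at 3.98, 7.68 and 7.70 in cKO replicates 1 to 3, with 7 reads at its lowest. Control replicate 3 was the highest of all 6, so the groups overlapped (log2 fold change 1.08, SE 0.78). The fold change was 0.49 without control replicate 2 and 1.80 without control replicate 3, and 0.35 without both libraries numbered 2. Itm2a, on chromosome X from 107397099 to 107403376 (minus strand), encodes a membrane protein with a BRICHOS domain. It was at 38.3, 16.9 and 18.8 units in control and at 32.6, 0 and 11.9 in cKO, from 415, 230 and 338 reads and from 680, 0 and 282 reads.

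The fold change of Itm2a rested on cKO replicate 2, which had no read of it. With that library the log2 fold change was -1.67 (SE 1.08), and without it -0.21. On the recovered reads of all 6 libraries it was -0.73 in edgeR and -0.76 in DESeq2, and with a pseudocount of 0.1 it was -2.77. Zero reads in that library allow up to 0.303 units, while the other 5 libraries held 11.9 or more. Of 3013 other genes with a mean within 1.5-fold of that of Itm2a, 52 were also at 0 in cKO replicate 2, or 1.73%, and 7 in control replicate 2. None of them was at 0 in the remaining 4 libraries. The SD of Itm2a over the 6 libraries, 1.93 on the log2 scale, was larger than that of 98.6% of those genes, and that of Abcb1a, at 0.31, was larger than that of 5.83% of the genes within 1.5-fold of its own mean.

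**Figure D3:**
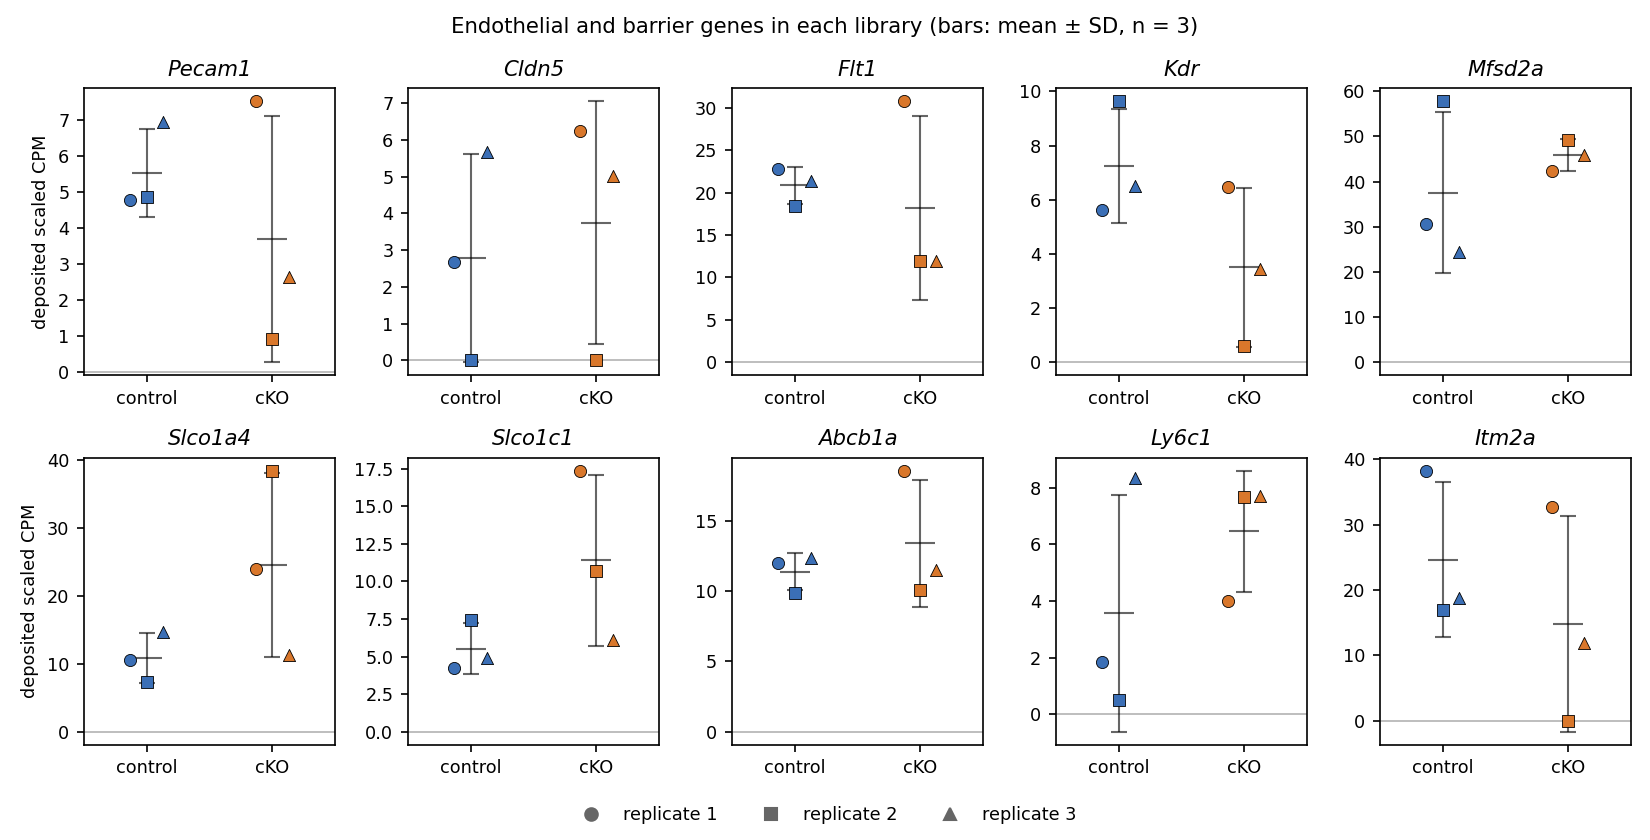
Deposited scaled CPM of each of the 10 genes in the 3 control and 3 cKO libraries, with the marker showing the replicate and bars the mean ± SD (n = 3). The groups overlap in every panel, and Cldn5 is at 0 in both libraries numbered 2.

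Within cKO replicate 2 the 10 genes thus parted. Pecam1, Flt1, Kdr and Itm2a had their lowest value of all libraries there and Cldn5 shared its lowest with control replicate 2, while Slco1a4 had its highest there. Counting shared lowest values, 34.5% of all tested genes had their lowest there, and 23.8% their highest. Control replicate 2 held the lowest value of 4 of the 10 genes (Cldn5, Slco1a4, Abcb1a and Ly6c1), beside 21.5% of all tested genes. In cKO replicate 1, 5 of the 10 had their highest value (Pecam1, Cldn5, Flt1, Slco1c1 and Abcb1a), beside 16.4% of all tested genes. The markers of oligodendrocytes were also highest and those of neurons lowest in cKO replicate 1, at sums of 35319 and 1919. Their part in the values of the 10 genes was not tested.

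**Figure D4:**
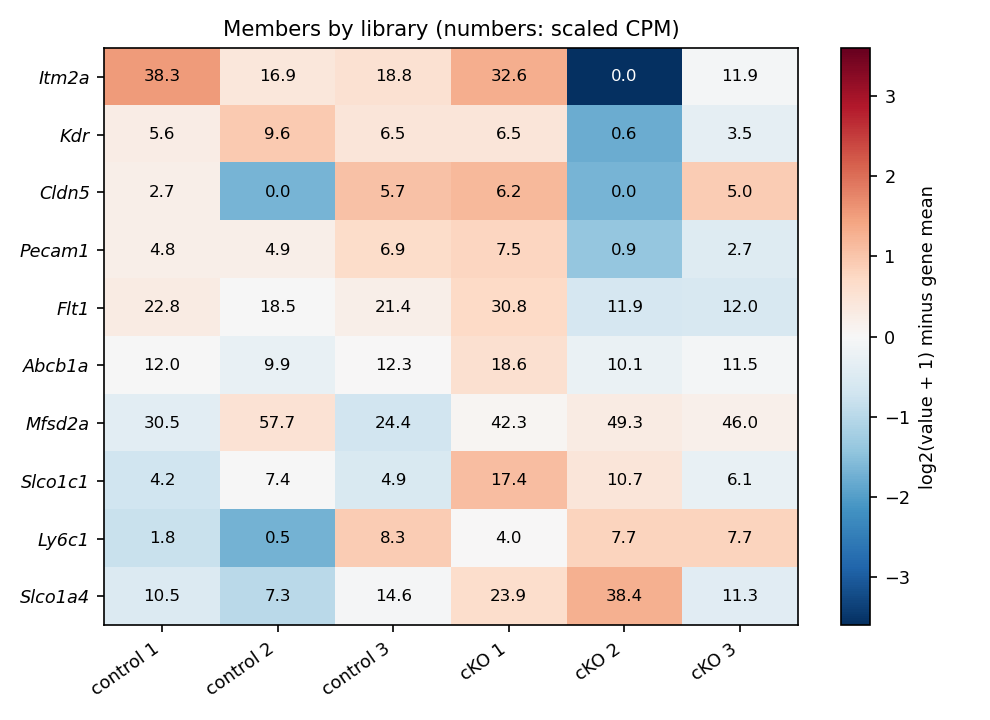
Centred log2(value + 1) of each gene (colour) and deposited scaled CPM (numbers) in the 6 libraries, with genes ordered by cKO replicate 2. In that library Itm2a and Cldn5 are at 0 while Slco1a4 reaches 38.4.

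Levels were compared between genes per length of exon. Lengths were the exon unions of GENCODE M21 in mm10, from 1416 bases for Cldn5 to 13504 for Flt1, and the values are units per kilobase, as mean ± SD over the 6 libraries. Mfsd2a was the highest at 18.5 ± 5.47 and ranked first in 5 of the 6 libraries. Itm2a followed at 11.3 ± 7.98 and ranked first or second in every library but cKO replicate 2. Ly6c1 was at 2.99 ± 2.01, Slco1a4 at 2.75 ± 1.82, Cldn5 at 2.31 ± 1.98, Abcb1a at 2.26 ± 0.581, Slco1c1 at 1.63 ± 0.951 and Flt1 at 1.45 ± 0.530. Pecam1, at 0.741 ± 0.404, and Kdr, at 0.596 ± 0.340, were the lowest. Between neighbours in this order the mean difference was larger than its SD over the libraries for 1 of 9 pairs, Flt1 over Pecam1, which held in 6 of 6 libraries. Neighbours from Ly6c1 down to Flt1 were not separated. With the smaller exon set of the basic annotation Slco1a4 moved above Ly6c1, Slco1c1 moved above Abcb1a and Cldn5, and Abcb1a moved above Cldn5.

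**Figure D5:**
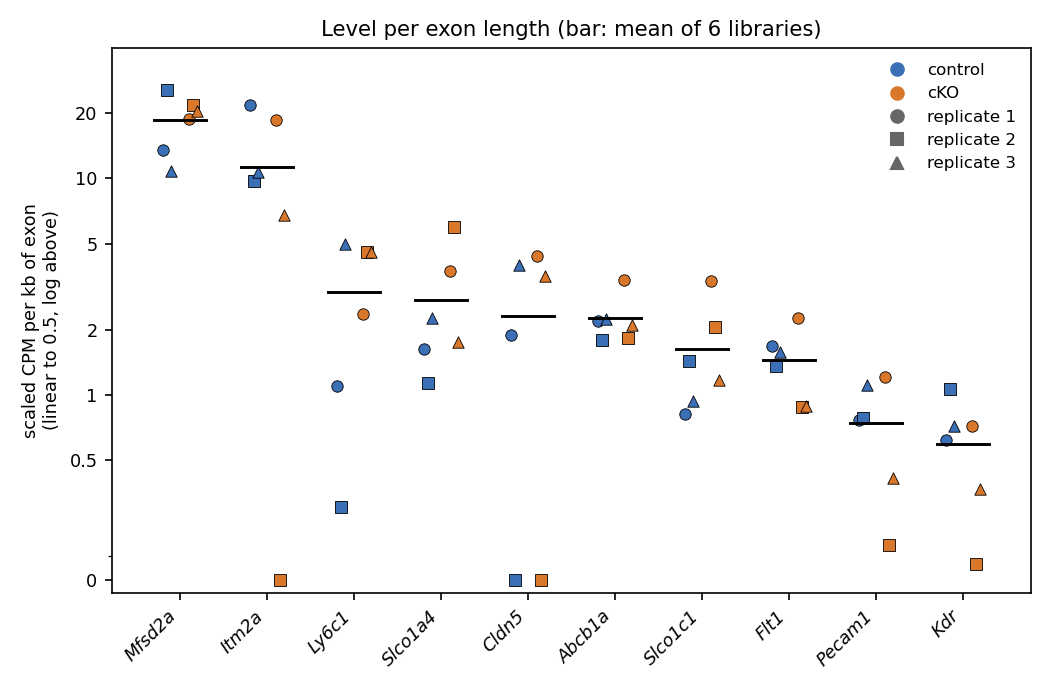
Deposited scaled CPM per kilobase of exon (linear to 0.5, log above) for the 10 genes in each library, ordered by the mean over 6 libraries (bar). Mfsd2a and Itm2a stand above the rest except in cKO replicate 2, where Itm2a is at 0.

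Close paralogs limit how far reads can be assigned to 2 of the genes. Of the 50-base stretches in Ly6c1 transcripts, 21.5% also occur in Ly6c2 and 32.8% in some other gene. Of those in Abcb1a 16.3% occur in Abcb1b and 22.5% in some other gene. Both strands were searched, so the 22.5% also counts the antisense gene Gm42686, which is not a paralog. For the other 8 genes the share was at most 1.61%. Ly6c2, a monocyte gene, had no read in any library. Ly6a, a further gene of the family, was at 2.40, 2.43 and 8.33 units in control and at 3.69, 22.2 and 8.21 in cKO. Abcb1b was at 10.8, 0.221 and 9.001 in control and at 10.4, 20.8 and 8.54 in cKO, a range far wider than that of Abcb1a. In GENCODE M21, 10.1% of the exon bases of Abcb1a lie under the antisense gene Gm42686, whose reads cannot be told apart where counting ignored strand. Of the Slco1a4 neighbours in the family, Slco1a5 reached at most 1.30 units, Slco1a1 0.168, and Slco1a6 had no read.

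Other genes that define endothelium were present as well. Of 24 further identity genes, 21 were tested, with 12 higher and 9 lower in cKO, a median log2 fold change of 0.16 and 0 past the threshold in limma. Summed over all 24, levels were 240.4, 144.8 and 212.3 units in control and 242.9, 241.0 and 243.4 in cKO replicates 1 to 3. This sum was lowest in control replicate 2 and was not low in cKO replicate 2. The highest genes by mean were Cdh5, Cd34 and Eng. Cdh5, which encodes VE-cadherin of the adherens junction, was at 98.0, 16.5 and 15.8 units in control and at 55.4, 12.7 and 69.5 in cKO replicates 1 to 3. It was high in control replicate 1 and in cKO replicates 1 and 3. The fibroblast sums were also highest in those 3 libraries, at 6802, 4005 and 4072, beside 417.9 to 1165 in the rest. The pericyte and smooth muscle sums were 1223, 1213 and 741.6, beside 391.6 to 622.5. Most of the low fibroblast sums was Pdgfra, at 411.6 and 692.7 in control replicates 2 and 3 and 362.3 in cKO replicate 2. Col1a1 was at 60.0, 48.9 and 3.54 there. Cspg4, in the pericyte list, was at 105.7 to 157.3 in all libraries. The cells that Pdgfra and Cspg4 were read from were not tested. Eng, a co-receptor of TGF-beta, was at 37.8, 5.37 and 17.6 in control and at 39.9, 14.5 and 33.8 in cKO, highest in the same 3 libraries. Cd34, a sialomucin gene also transcribed by fibroblasts, was at 17.1, 36.9 and 17.6 and at 10.5, 61.8 and 48.7, with its highest value in cKO replicate 2. Among the 10 genes none had its 3 highest values in the 3 libraries with the highest fibroblast sums. The part of mural cells and fibroblasts in the Cdh5 and Eng values was not tested.

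Junction genes outside the 10 were mostly lower in cKO by sign, and none passed the threshold. Of 13 tested, 3 were higher and 10 lower, with a median log2 fold change of -0.15 and 0 past the threshold in limma. The highest were Tjp1, which encodes the scaffold ZO-1, at 389 ± 97.8 units in control and 376 ± 147 in cKO, Mllt4, which encodes afadin, at 176 ± 17.5 and 158 ± 23.3, and Ctnnd1, which encodes p120-catenin, at 169 ± 38.1 and 139 ± 37.3 (SD, n = 3 each). These 3 genes are transcribed by many cell types. Of 22 tested transporters and receptors of the barrier, 12 were higher and 10 lower, with a median of 0.08. The highest were the lipoprotein receptor gene Lrp1 at 836 ± 151 and 937 ± 143, the taurine transporter gene Slc6a6 at 431 ± 285 and 274 ± 74.7, and the transferrin receptor gene Tfrc at 212 ± 79.4 and 153 ± 43.9.

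Signals that act on endothelium were read beside their receptors. Of 15 tested VEGF, angiopoietin, apelin and Notch genes, 7 were higher and 8 lower, with a median log2 fold change of -0.04. Vegfa, the ligand of both Flt1 and Kdr, was at 84.5 ± 26.4 units in control and 75.5 ± 21.1 in cKO (SD, n = 3 each). Notch1 was at 136 ± 47.7 and 125 ± 55.7, and the co-receptor gene Nrp1 at 32.1 ± 26.8 and 23.0 ± 14.6. Of 19 tested genes of the Wnt pathway that induces the barrier, 7 were higher and 12 lower, with a median of -0.13. The highest were Ctnnb1, which encodes beta-catenin, at 260 ± 60.3 and 234 ± 60.9, the co-receptor gene Lrp6 at 148 ± 38.7 and 137 ± 43.1, and the nuclear receptor gene Ppard at 43.5 ± 8.42 and 34.7 ± 9.91.

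Genes of vesicle traffic and leukocyte adhesion, which mark a leaky or inflamed vessel wall where endothelium transcribes them, were tested for 8 of 11. Of these, 4 were higher and 4 lower, with a median of -0.02. The caveolar genes led: Cav2 was at 54.6 ± 17.7 units in control and 50.3 ± 13.5 in cKO, Ptrf, which encodes cavin-1, at 52.0 ± 32.9 and 49.8 ± 21.2, and Cav1 at 41.7 ± 5.11 and 29.3 ± 17.9 (SD, n = 3 each). Of 9 arterial and venous genes 5 were tested, with 2 higher and 3 lower, led by the venous regulator Nr2f2 at 48.9 ± 43.1 and 51.1 ± 23.2 and the arterial ligand gene Efnb2 at 40.8 ± 2.71 and 45.8 ± 29.0. Hey1, a Notch target, was at 14.9 ± 5.01 and 9.51 ± 6.92. The sort was set to remove endothelial cells, and which cells the genes of these 6 further lists were read from was not tested. In these 6 lists of junction, transporter, ligand, Wnt, vesicle and arterial or venous genes, 0 genes passed the threshold in limma, edgeR or DESeq2. At an unadjusted p under 0.05 limma gave 1 gene each in the ligand and Wnt lists and 0 in the other 4, and edgeR and DESeq2 gave 0 in all 6. Over all 14796 tested genes limma gave 126, edgeR 73 and DESeq2 175. For the identity list all 3 tools gave 0 at that level.

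The mean pattern of the 10 genes over the libraries was highest in cKO replicate 1 and lowest in cKO replicate 2. For replicates 1 to 3 their mean log2 level was 3.31, 3.04 and 3.56 in control and 3.98, 2.64 and 3.28 in cKO. Likeness to this pattern was measured as the root-mean-square distance between centred log2 profiles over the 6 libraries, for 11626 other genes with a mean of at least 5. The nearest 5 were Phactr2 at a distance of 0.09, Tpd52 at 0.11, Fbxw8 at 0.12, Fpgt at 0.13 and Fscn1 at 0.13, where the median of all was 0.63. Phactr2 was at 38.7, 30.6 and 40.8 units in control and at 52.8, 20.2 and 32.0 in cKO. Of the 10 genes themselves, Abcb1a and Flt1 were nearest to their shared mean, at 0.20 and 0.28, and Itm2a and Ly6c1 farthest, at 1.46 and 1.04. For 7 of the 10 the distance was larger than the median of all those genes. The distance also grows with a gene's spread, and Cldn5 and Pecam1 lie below the mean of 5 asked of the other genes. It therefore does not show how many of the 10 follow the mean pattern.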

How the data were processed

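RNA was measured in 6 libraries of sorted cells, 3 per group. Cortex at the infarct border was digested with pronase for 75 minutes before the sort, and the Ovation SoLo kit was used, per the labels' protocols. Trimmomatic, HISAT2, featureCounts and edgeR are listed without versions, with the mm10 build, in the submitters' processing notes. Neither the annotation nor the strand setting is given in the sources used here. The authors deposited a normalized signal, read counts scaled by depth (CPM) and rescaled per library. Column totals ran from 961962 to 1027958, so the values are not plain CPM as the design had assumed, and the test was kept. Every value was a whole multiple of a step per library (100% within 0.001), which gave back whole reads. Samples were grouped by title.

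The groups were compared on log2(value + 1) by limma 3.58.1 (R 4.3.3, trended variance), for genes of at least 1 in at least 3 libraries, with Benjamini-Hochberg adjustment over 14796 genes. edgeR 4.0.16 and DESeq2 1.42.0 were run on the recovered reads as alternatives, beside other pseudocounts, filters, scalings, weights, a replicate block and left-out libraries. The procedure was also run on simulated counts, drawn independently for each gene. These lacked the shifts of whole marker lists between libraries seen here, so that run does not show how the test performs on these data. Floors of 3 reads cover counting error only.

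The members and lists were chosen with earlier results of these data known. All 10 members are named, with their paralogs, the sort genes, the 3 members of each other endothelial list with the highest mean over the 6 libraries, and the 5 genes nearest to the mean pattern, skipping predicted genes. Afdn and Cavin1 were found under their older symbols Mllt4 and Ptrf through RefSeq synonyms. Sums of marker lists cover all listed genes found in the table.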

Additional observations from a re-analysis of the deposited data

How the results depend on the processing

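Under 17 alternatives to the limma test, 0 of the 10 endothelial and barrier genes passed an adjusted p under 0.05, and the smallest adjusted p of any of them was 0.732, for a fit without cKO replicate 1. Over all genes the count stayed at 0 in each direction except that DESeq2 called 1 lower gene, Ifit3, which is not among the 10. Of 169 fold changes of single members under the alternatives, 165 kept their direction. The other filters and the replicate block cannot alter a fold change, so their share of the 165 was fixed in advance. The 4 that turned came from leaving out 1 library: Abcb1a without cKO replicate 1, at -0.065 (range over the 6 such fits -0.07 to 0.34), and Cldn5 without control replicate 2, cKO replicate 1 or cKO replicate 3 (range -0.49 to 1.18). The median log2 fold change of the 10, 0.23 with all libraries, ran from -0.16 to 0.33 without 1 library, and fell below 0 without control replicate 2 or cKO replicate 1. The filter at 5 removed Pecam1. Leaving out both libraries numbered 2, chosen after the data were seen, gave a median of 0.30 and -0.42 for Itm2a.

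Deviations from the group means correlated at 0.49, 0.30 and 0.03 between libraries of the same replicate number, for numbers 1 to 3. The titles give replicate numbers but name no pairs, so the numbers were not taken as pairs. Each library correlated best with the one of its own number, for control replicate 3 only by 0.034 to 0.028. Deviations within a group sum to 0, so these correlations are not independent, and they are a hint from the data and not from the design. With a replicate block 0 members and 0 of all genes were called. The median log2 fold change of the members stayed at 0.23 by construction, since each replicate number occurs in both groups. The low counts of Cldn5, Kdr, Pecam1 and Ly6c1, down to 0, 6, 9 and 7 reads, limit what could be detected for these genes.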
